A study of Drosophila melanogaster with 34 samples.

Results

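Small RNA of wild-type Drosophila melanogaster sperm was set against small RNA of wild-type testis, to see which small RNAs of the testis were still found in sperm and which were not. Of the study's 34 samples the labels put 9 in the groups used here, and 6 of these have a column in the count tables. These are 3 sperm libraries labelled WT and 1 library each of the WT testis groups T1, T2 and T3, which were taken as 1 testis group. The labels give neither strain nor age, nor what T1, T2 and T3 stand for, so the spread of the testis group holds any difference between the 3. All 72425 features counted in these libraries were considered, 42869 with reads on their own strand (sense) and 29556 with reads on the opposite strand (antisense). In the following sentences values are listed as sperm 1, 2 and 3 against testis T1, T2 and T3.

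A piRNA is a small RNA bound by a PIWI-clade Argonaute protein in the gonad, and most piRNAs are antisense to transposable elements (TEs) and guide their silencing. They are cut from long precursors made at piRNA clusters, at some 3' untranslated regions (UTRs), and in the fly testis at the Y-linked Suppressor of Stellate repeats. miRNAs are cut from short hairpins and repress messenger RNAs, and endo-siRNAs are cut by Dicer from long hairpin transcripts. tRNA fragments are pieces of tRNA, known in mature mammalian sperm as a major class of small RNA.

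The libraries held 6674923, 3303302 and 7294914 assigned counts in sperm and 3803519, 3650015 and 6202641 in testis. Antisense reads made up 0.510%, 0.691% and 0.627% of these in sperm and 8.68%, 5.66% and 1.92% in testis. Per the labels' protocols, testis libraries were made at a smaller reaction volume than sperm libraries, and samples came from more than 1 site without a site per sample. Tissue and library preparation therefore cannot be told apart. Whether libraries of a group came from separate animals is not given, so p-values may measure technical spread. In bulk RNA, fewer cells of a type and less RNA per cell cannot be told apart either.

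Sperm 1 stood apart from sperm 2 and 3. Fragments of digestive enzyme genes, a list chosen after these values were seen, summed to 2721, 215 and 301 against 77.3, 109 and 123 CPM (counts scaled to a common library size by the trimmed mean of M values, TMM). Jon99Ciii, a serine protease gene, measured 267, 4.29 and 4.27 against 0.282, 0.273 and 0 CPM and the trypsin gene betaTry 396, 5.42 and 4.84 against 0.282, 0.818 and 0 CPM. All 9 tested genes of that list were higher in sperm with all libraries, whereas without sperm 1, 4 of its 6 tested rows were higher and 1 was lower. Without testis T1, 0 of its 18 tested rows were called. The miRNA mir-276a stood apart in the same library (3497, 384 and 412.2 against 381, 1436 and 1801 CPM). Why sperm 1 differed was not tested. Without sperm 1 the log2 fold change was 4.49 for Jon99Ciii in place of 8.89, 3.83 for betaTry in place of 8.53, 6.97 for Mst57Da in place of 8.07, 3.56 for tRNA:Val-CAC-1-1 in place of 4.42 and -3.99 for mir-184 in place of -2.79. It was more negative by over 1.5 times on the linear scale for ProtA (-8.15), RSP antisense (-8.70), cluster11 (-9.41), vas (-8.05) and the repeats (ACAATAG)n (-9.08) and (CTTGT)n (-5.43). All 11 rows were called with and without it, and other results that it moved are given beside their values.

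Of the 72425 rows, 46021 had any count and 8291 passed the filter on low counts. edgeR called 59.3% of the tested rows at an adjusted p under 0.05, 25.5% higher in sperm (2116 rows) and 33.8% lower in sperm (2802 rows). The groups did not overlap in 5589 of the tested rows (67.4%). With so many rows called, a class or list is read against these shares and not against 0. The filter let rows in through 1 group alone: 1669 of the lower rows had under 10 counts in every sperm library, and 894 of the higher rows had under 10 in every testis library. Counts of called members are therefore descriptions of what passed the filter. The median log2 fold change (sperm over testis) of all tested rows was 0.04, and other scalings moved each row by a median of -0.21 (DESeq2 size factors) or 0.32 (total counts alone). The DESeq2 test called 1806 rows higher and 4907 lower, and edgeR without testis T1 called 1658 higher and 3427 lower.

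The counts are not split by read length, so reads at TEs, clusters and hairpin loci are not shown to be piRNAs or endo-siRNAs. Antisense TE reads, the class that holds most piRNAs, took 0.109, 0.149 and 0.113 against 6.13, 3.77 and 1.09% of all counts in the 6 libraries. The mean was 0.124% ± 0.022 in sperm and 3.66% ± 2.52 in testis (SD, n = 3 each). Sense TE reads took 0.111, 0.138 and 0.112 against 3.86, 2.43 and 0.737%. Every testis library lay above every sperm library on both strands, T3 least far. An exact two-sided permutation test gave p = 0.1 for each, the smallest that 3 against 3 libraries allow. miRNAs took 1.13, 0.787 and 0.904 against 2.66, 3.10 and 1.35%, also with no overlap (exact permutation p = 0.1). tRNA reads had the opposite order, at 6.13, 5.34 and 4.69 against 1.53, 1.87 and 1.88% (exact permutation p = 0.1). Ribosomal RNA fragments were the largest class, at 80.1, 77.7 and 78.4 against 58.7, 62.8 and 72.3%, so every share above is also set by how much rRNA a library held. Among reads outside rRNA rows the antisense TE share was 11.4 percentage points lower in sperm and the tRNA share 20.4 points higher.

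**Figure D1:**
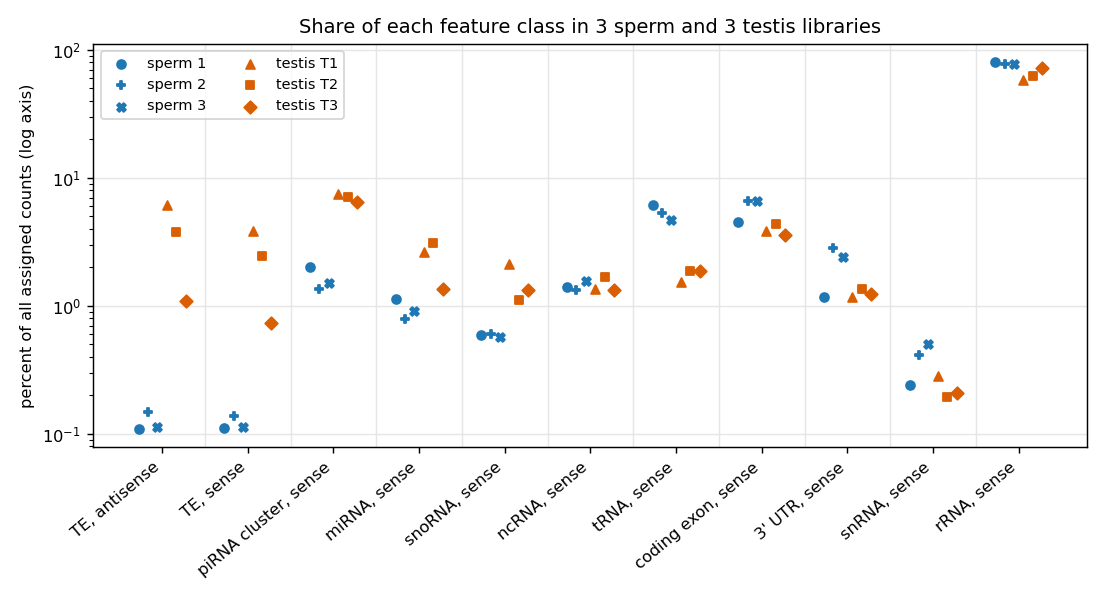
Share of all assigned counts (percent, log axis) taken by 11 feature classes in each of the 3 sperm (blue) and 3 testis (orange) libraries; each point is 1 library. Antisense TE reads lie at 0.109 to 0.149% in sperm and 1.09 to 6.13% in testis, and tRNA reads at 4.69 to 6.13% against 1.53 to 1.88%.

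Of 147 antisense TE rows tested, 145 were lower in sperm and 0 were higher, and of 134 sense TE rows 121 were lower and 0 were higher, beside 33.8% lower over all rows. The median log2 fold change was -5.16 for antisense and -4.19 for sense rows. Summed antisense TE reads measured 1286, 1114 and 929.9 against 65800, 37530 and 14144 CPM, a mean 35.3-fold lower in sperm (23.3-fold without T1), and summed sense TE reads 1308, 1033 and 923 against 41441, 24207 and 9589 CPM, 23.0-fold lower. No sperm library overlapped any testis library, although T1 and T3 differed by several fold. When the antisense table was fitted and scaled alone, 122 of 152 tested antisense TE rows were lower and 5 were higher, with a median of -2.67.

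All 6 groups of element were lower. Groups were set by element name alone, so the group of other LTR elements may also hold gypsy-type elements. Antisense reads of LINE elements, which move by copying their RNA, summed to 327, 271 and 203 against 19150, 10664 and 3965 CPM, 42.1-fold lower in sperm and 27.4-fold without T1. Gypsy-clade LTR elements, retrovirus-like elements of which some are active in somatic gonad cells, summed to 387, 321 and 280.3 against 18590, 9567 and 4101 CPM (32.6-fold and 20.7-fold without T1), and other LTR elements to 350.0, 349 and 284 against 18330, 11108 and 3880.4 CPM (33.9-fold). DNA transposons, which move by cutting and pasting, summed to 135, 125 and 119 against 4779, 2799 and 1016 CPM (22.7-fold and 15.1-fold without T1). The fold was smallest for the telomeric retroelements, which maintain fly chromosome ends, at 31.5, 12.7 and 16.5 against 385, 294 and 129.8 CPM (13.3-fold, 4 of 4 rows lower). It was largest for the rDNA retrotransposons, a group with 1 tested antisense row. That row, R1_DM, an element inserted in rRNA genes, measured 55.0, 34.4 and 26.2 against 4564, 3097 and 1052 CPM (log2 fold change -6.24 ± 0.76, edgeR adjusted p = 5.4e-05). No test of a difference between these groups was made.

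Among single elements, the antisense rows most abundant in testis were Baggins1, a LINE, with 100.0, 85.9 and 57.9 against 7269.7, 4575 and 1525 CPM (log2 fold change -5.78 ± 0.74, edgeR adjusted p = 6.5e-05), and the LTR element NOMAD_I-int with 60.4, 69.8 and 59.7 against 5257, 3638 and 1184 CPM (log2 fold change -5.73 ± 0.71, edgeR adjusted p = 5.8e-05). Among sense rows the DNA transposon PROTOP_A measured 63.6, 42.9 and 24.6 against 5488, 3917 and 1117 CPM (log2 fold change -6.33 ± 0.80, edgeR adjusted p = 6.3e-05) and NINJA_I-int 61.3, 36.2 and 24.5 against 5078, 3159 and 1323 CPM (log2 fold change -6.29 ± 0.76, edgeR adjusted p = 5.3e-05). Each of these 4 was still present in every sperm library. The antisense row with the highest mean in sperm, singled out after its values were seen, was the LTR element ROO_I-int, with 91.9, 105 and 81.8 against 1706, 1118 and 393 CPM (log2 fold change -3.53 ± 0.63, edgeR adjusted p = 5.8e-04). It was lower in sperm under all 16 alternatives, by the least (-1.13) with the antisense table fitted alone. Antisense MICROPIA_LTR was at 0 in all 3 sperm libraries and at 51.1, 22.4 and 8.18 CPM in testis, at least 52.8-fold lower against a floor of 3 counts per library. Sense Invader6_LTR was likewise at 0 in sperm and at 45.99, 24.8 and 12.8 CPM in testis, at least 54.1-fold lower. The sense Doc row DOC, a LINE singled out after its values were seen, measured 136, 88.2 and 116 against 400.1, 252 and 152 CPM and did not pass (log2 fold change -1.24 ± 0.52, edgeR adjusted p = 0.057). Neither did the antisense row of the DNA transposon TC1_DM, singled out in the same way, at 4.05, 4.29 and 3.49 against 1.69, 3.00 and 0.839 CPM (log2 fold change 1.12 ± 0.49, edgeR adjusted p = 0.0678). In all, 13 sense and 2 antisense TE rows were not called, and DOC was called lower in 8 and TC1_DM higher in 3 of the 16 alternative fits.

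The TE reads left in sperm also had another strand balance. Antisense reads made up 49.6, 51.9 and 50.2 against 61.4, 60.8 and 59.6% of all TE counts, 50.6% ± 1.2 in sperm and 60.6% ± 0.9 in testis (SD, n = 3 each; exact permutation p = 0.1, the smallest possible). This percentage does not depend on scaling between libraries. The order of the 147 antisense rows by abundance was largely kept: Spearman's rho between mean log2 sperm CPM and mean log2 testis CPM was 0.83, beside 0.99 between T1 and T3 and 0.93 between sperm 2 and 3. These rows share libraries and can share reads, so rho is a description across rows.

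**Figure D2:**
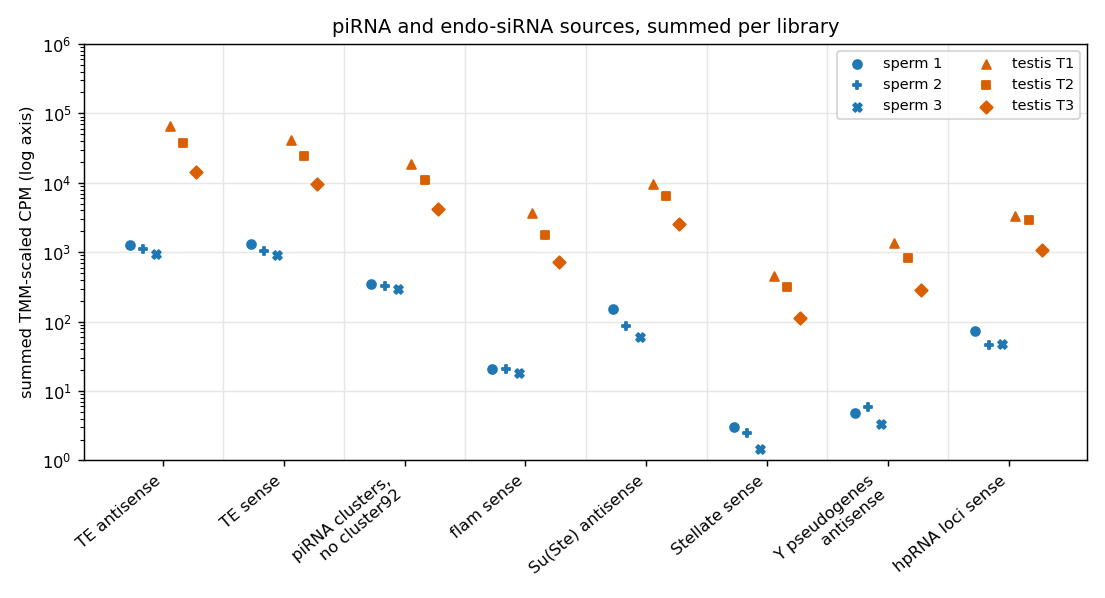
Summed TMM-scaled CPM (log axis) of piRNA and endo-siRNA sources in each sperm (blue) and testis (orange) library; each point is 1 library. In all 8 groups the 3 sperm libraries lie below all 3 testis libraries, for example 60.7 to 151 CPM against 2579 to 9634 CPM for antisense Suppressor of Stellate.

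Reads from piRNA clusters were lower as well. Of 72 sense cluster rows tested, 68 were lower in sperm and 0 were higher. Without cluster92, the clusters' sense reads summed to 349, 326 and 291 against 18411, 10828 and 4151 CPM, 34.6-fold lower in sperm and still 12.9-fold below T3 alone. cluster92 measured 23347, 9849.6 and 12025 against 61710, 60086 and 79583 CPM (log2 fold change -2.15 ± 0.49, edgeR adjusted p = 0.00272), and the 5.8S rRNA pseudogene 5.8SrRNA-Psi:CR45863 stood at a like level, with 16947, 7328 and 8557 against 79352, 74182 and 90019 CPM (log2 fold change -2.89 ± 0.49, edgeR adjusted p = 4.1e-04). The part of rRNA fragments in either row was not tested. The cluster flam, the main piRNA source of somatic gonad cells, measured 20.96, 21.02 and 18 against 3615, 1796 and 734 CPM in sense (log2 fold change -6.68 ± 0.76, edgeR adjusted p = 4.6e-05). Reads opposite to flam were 10.0, 5.20 and 4.84 against 441, 228 and 90.4 CPM (log2 fold change -5.24 ± 0.73, edgeR adjusted p = 1.0e-04). Antisense reads made up 32.4, 19.8 and 21.2 against 10.9, 11.2 and 10.96% of flam counts. cluster9 measured 48.6, 33.2 and 23.5 against 4968, 3257 and 1127 CPM (log2 fold change -6.47 ± 0.76, edgeR adjusted p = 5.0e-05), cluster2 20.6, 15.8 and 10.8 against 659, 464 and 142 CPM (log2 fold change -4.74 ± 0.70, edgeR adjusted p = 1.4e-04) and cluster11 0.352, 0 and 0.113 against 118, 67.9 and 17.8 CPM (log2 fold change -8.53 ± 0.99, edgeR adjusted p = 4.8e-05). Among antisense cluster rows 40 of 49 were lower, led in abundance by cluster103 with 31.4, 24.6 and 15.9 against 2782, 1927 and 662 CPM, and 1 was higher. That row, cluster79, measured 67.3, 68.7 and 87.5 against 31.6, 31.9 and 38.8 CPM (log2 fold change 1.13 ± 0.43, edgeR adjusted p = 0.0419), a call that was lost without sperm 2, sperm 3, T1 or T2 (0.82 to 1.32). With the antisense table fitted and scaled alone, 31 of 50 tested antisense cluster rows were lower and 8 were higher, with a median of -2.34 in place of -4.86.

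Of 8 listed genic and unistrand sources, 6 were tested in sense, 3 were lower and 1 was higher. The 3' UTR of tj (traffic jam), a transcription factor gene of somatic gonad cells whose 3' UTR gives rise to piRNAs, measured 0, 0.226 and 0 against 102, 43.9 and 19.9 CPM (log2 fold change -9.45 ± 1.05, edgeR adjusted p = 4.2e-05). Only 1 read of it was found in the 3 sperm libraries together. The 3' UTR of AGO1, which encodes the Argonaute protein of miRNAs, was the higher one, with 14.1, 17.4 and 16.1 against 5.08, 5.18 and 2.94 CPM (log2 fold change 1.86 ± 0.40, edgeR adjusted p = 0.00191).

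Suppressor of Stellate, abbreviated Su(Ste), is a repeat array on the Y chromosome whose antisense piRNAs silence the X-linked Stellate genes in the male germline. Its antisense rows summed to 151, 85.7 and 60.7 against 9634, 6546 and 2579 CPM, 63.0-fold lower in sperm, and 26 of 26 tested rows were lower with a median log2 fold change of -6.01. With the antisense table fitted and scaled alone 26 of 26 were lower with a median of -3.63. One of the most abundant rows, Su(Ste):CR42430, measured 12.9, 11.98 and 6.97 against 798, 549.8 and 215 CPM (log2 fold change -5.62 ± 0.69, edgeR adjusted p = 5.7e-05). Sense Su(Ste) reads summed to 4.05, 0.904 and 1.8 against 309, 213 and 89.7 CPM with 17 of 17 rows lower. Sense reads of Stellate itself summed to 2.99, 2.49 and 1.46 against 451, 319 and 112 CPM, with 12 of 12 rows lower. Antisense reads made up nearly all Su(Ste) counts in both tissues, at 97.8% ± 1.0 in sperm and 96.8% ± 0.1 in testis (SD, n = 3 each; exact permutation p = 0.1). These copies are near identical and the handling of reads with several positions is not stated, so single rows are uncertain and the sums carry the result.

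Pseudogenes of the Y chromosome, counted on the antisense strand, summed to 4.76, 5.88 and 3.37 against 1344, 827 and 289 CPM, and 27 of 27 tested rows were lower (24 of 24, with a median of -5.06, in the antisense table alone). The row CR46279 measured 0.881, 1.13 and 0.562 against 252, 160.3 and 52.8 CPM (log2 fold change -7.51 ± 0.80, edgeR adjusted p = 3.7e-05). The sense row CR46170, also on the Y chromosome, measured 0, 0.452 and 0.113 against 80.4, 55.6 and 18.7 CPM (log2 fold change -8.11 ± 0.91, edgeR adjusted p = 4.3e-05). Of the 58 such pseudogenes counted in antisense, 27 passed the filter. Among satellite DNA rows 6 of 7 antisense rows and 6 of 7 sense rows were lower, and 1 antisense row was higher. Antisense reads of SAR_DM measured 8.81, 5.88 and 5.62 against 488, 218 and 88.1 CPM (log2 fold change -5.28 ± 0.74, edgeR adjusted p = 1.0e-04), and of RSP, the Responder satellite that is the target of Segregation distorter, 2.11, 0.226 and 0.225 against 188, 94.3 and 35.4 CPM (log2 fold change -6.94 ± 1.00, edgeR adjusted p = 1.2e-04).

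Reads from long hairpin loci, whose endo-siRNAs depend on AGO2 and not on PIWI proteins, were lower too. The hairpin loci summed to 72.4, 46.8 and 47.5 against 3371, 2951 and 1076 CPM, 44.4-fold lower in sperm, and 5 of 5 tested sense rows were lower. hpRNA:CR46342 measured 29.9, 17.63 and 17.0 against 1989, 1712 and 622 CPM (log2 fold change -6.06 ± 0.70, edgeR adjusted p = 4.8e-05) and hpRNA:CR18854 37.9, 27.1 and 28.2 against 1163, 1034 and 379 CPM (log2 fold change -4.79 ± 0.63, edgeR adjusted p = 7.5e-05). hpRNA:CR32205 measured 1.23, 0.452 and 0.562 against 154, 148 and 53.3 CPM (log2 fold change -7.26 ± 0.74, edgeR adjusted p = 3.6e-05). hpRNA:CR32207 had 1.94, 0.904 and 0.9 against 48.5, 42.8 and 15.9 CPM (log2 fold change -4.82 ± 0.60, edgeR adjusted p = 5.9e-05) and hpRNA:CR33940 1.41, 0.678 and 0.787 against 12.98, 8.99 and 3.98 CPM (log2 fold change -3.13 ± 0.55, edgeR adjusted p = 4.7e-04). For each of the 5, all sperm libraries lay below all testis libraries, beside 67.4% of all tested rows without overlap in either direction.

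miRNAs divided by kind. Of 91 tested genes 63 were lower in sperm and 4 were higher, with a median log2 fold change of -2.35 and quartiles of -5.68 and -0.90. The 6 genes of the cluster mir-959 to mir-964 (dm6, 2L, 5640940 to 5642201) were all lower, and their reads summed to 3.70, 13.8 and 5.96 against 1273, 1510.5 and 678 CPM, 148-fold lower in sperm and 239-fold without sperm 2. mir-964 measured 1.06, 5.88 and 2.25 against 443, 488 and 224 CPM (log2 fold change -7.00 ± 0.80, edgeR adjusted p = 4.6e-05) and mir-959 0.352, 1.13 and 0.225 against 214, 234 and 129 CPM (log2 fold change -8.48 ± 0.78, edgeR adjusted p = 3.5e-05). All 7 tested genes of the X-linked cluster mir-972 to mir-979 (dm6, X, 19551152 to 19561931) were lower as well, at a sum of 2.82, 9.49 and 2.36 against 526, 622 and 251 CPM (95.3-fold and 180.03-fold without sperm 2). mir-973 measured 1.41, 1.13 and 0.225 against 272, 314 and 117 CPM (log2 fold change -8.04 ± 0.84, edgeR adjusted p = 3.7e-05). mir-977 was at 0 in all 3 sperm libraries and at 9.03, 8.99 and 2.94 CPM in testis, at least 13.6-fold lower.

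A further list of testis-enriched miRNAs had 10 tested genes, all lower, which summed to 22.9, 15.4 and 11.2 against 4854, 2615 and 1070.5 CPM (172-fold and 112-fold without T1). It holds mir-312 of the mir-310 to mir-313 cluster (dm6, 2R, 20583752 to 20584260), with 2.64, 1.58 and 0.787 against 1527, 648 and 289.7 CPM (log2 fold change -8.95 ± 0.94, edgeR adjusted p = 3.7e-05), and its neighbour mir-310, with 1.76, 2.49 and 0.337 against 584, 374 and 116 CPM (log2 fold change -7.93 ± 0.96, edgeR adjusted p = 5.4e-05). The X-linked mir-984 measured 4.05, 2.03 and 1.8 against 673, 342 and 199 CPM (log2 fold change -7.26 ± 0.76, edgeR adjusted p = 3.7e-05). Together the 3 testis lists made up 0.221, 0.658 and 0.264 against 23.3, 15.4 and 11.4% of all miRNA counts, 0.381% ± 0.241 in sperm and 16.7% ± 6.1 in testis (SD, n = 3 each; exact permutation p = 0.1). This share does not depend on scaling between libraries. The lists were chosen with earlier results of these data known, so their direction is no independent evidence.

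**Figure D3:**
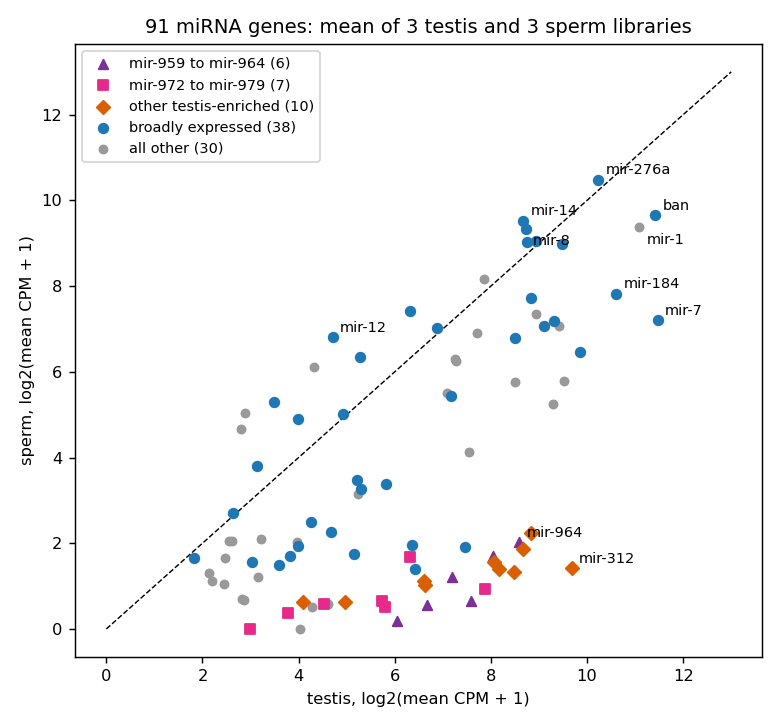
Mean abundance of the 91 tested miRNA genes in 3 testis libraries (x axis) and 3 sperm libraries (y axis), both as log2(mean CPM + 1); colours mark 4 gene lists and the dashed line marks equal abundance. The 23 genes of the 3 testis lists lie along the bottom, while mir-276a, mir-14 and mir-8 lie near or above the line.

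Of 38 tested genes among broadly expressed miRNAs 21 were lower and 2 were higher, and their sum was 10357, 4699 and 5752 against 15147, 18297 and 10990 CPM, 2.14-fold lower in sperm. mir-7, known as a regulator of cell fate, measured 221, 102 and 115 against 4756, 2917 and 846 CPM (log2 fold change -4.28 ± 0.74, edgeR adjusted p = 4.2e-04). mir-306 measured 3.70, 1.81 and 2.81 against 221, 259 and 46.3 CPM (log2 fold change -5.96 ± 0.78, edgeR adjusted p = 7.2e-05). bantam (ban), a growth-promoting miRNA, measured 964, 679 and 768 against 3154, 3517 and 1536 CPM (log2 fold change -1.77 ± 0.52, edgeR adjusted p = 0.0125), and this call was lost without sperm 2, sperm 3 or testis T2 (-1.63 to -1.50). mir-184 measured 481, 80.2 and 114 against 1515, 1914 and 1249.9 CPM (log2 fold change -2.79 ± 0.72, edgeR adjusted p = 0.00591) and mir-31a 134, 56.7 and 70.4 against 699, 1372 and 716 CPM (log2 fold change -3.41 ± 0.59, edgeR adjusted p = 4.6e-04).

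mir-1, the muscle miRNA, measured 1076, 232 and 675 against 2748, 2697 and 1094 CPM (log2 fold change -1.72 ± 0.65, edgeR adjusted p = 0.039). Its groups did not overlap by a narrow margin, and the call was lost without sperm 2, sperm 3, T1 or T2 (-1.76 to -1.15). mir-14, which is known to regulate fat and survival, measured 677, 759 and 776 against 336, 484 and 399 CPM, above testis in every library but not called (log2 fold change 0.86 ± 0.46, edgeR adjusted p = 0.131). let-7, a timer of development, measured 297.3, 276 and 292 against 208, 275 and 210.5 CPM (log2 fold change 0.32 ± 0.45, edgeR adjusted p = 0.564, 95% interval -0.67 to 1.31), so an equal level and a change of 2-fold are both inside its interval. mir-100, made from the same transcript, measured 50.5, 30.3 and 52.4 against 107, 177 and 123 CPM (log2 fold change -1.61 ± 0.48, edgeR adjusted p = 0.0136), a call that was lost without sperm 2, sperm 3 or T2. mir-276a had a log2 fold change of 0.25 ± 0.87 (edgeR adjusted p = 0.826), which turned to -1.60 without sperm 1 (edgeR adjusted p = 0.0882) and to -0.36 without T1.

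The 4 miRNAs higher in sperm were mir-12, mir-279, mir-281-1 and mir-281-2. mir-12 measured 114, 102 and 118 against 7.62, 37.9 and 29.8 CPM (log2 fold change 2.15 ± 0.59, edgeR adjusted p = 0.00892), with all 3 sperm libraries alike. mir-279 measured 179, 160.3 and 173 against 73.4, 93.5 and 69.6 CPM (log2 fold change 1.11 ± 0.45, edgeR adjusted p = 0.0494), close to the threshold, and was not called in any fit that left out 1 library. mir-281-2 measured 79.3, 7.23 and 9.90 against 4.23, 8.72 and 6.29 CPM (log2 fold change 2.32 ± 0.83, edgeR adjusted p = 0.0306), with groups that overlapped. Without sperm 1 its log2 fold change was 0.44 (edgeR adjusted p = 0.420), and the call was also lost without T1, T2 or T3 (1.91 to 2.54). mir-281-1, whose reads may be shared with mir-281-2, measured 57.9, 7.23 and 7.42 against 7.90, 6.54 and 3.35 CPM (log2 fold change 2.03 ± 0.78, edgeR adjusted p = 0.0421). Its sperm 2 and 3 lay inside the testis range, and without sperm 1 its log2 fold change was 0.33 (edgeR adjusted p = 0.546). That call was lost without T1, T2 or T3 too, and under 6 of the other alternatives. Within miRNA counts alone mir-14 took 5.08, 12.9 and 10.5 against 1.18, 1.57 and 2.27%, mir-8 took 5.91, 7.97 and 9.19 against 1.01, 1.84 and 2.30% and ban 7.23, 11.6 and 10.4 against 11.1, 11.4 and 8.73%. For mir-14 and mir-8 the groups did not overlap (exact permutation p = 0.1), and for ban they did (exact permutation p = 0.7).

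tRNA fragments took a larger share of counts in sperm, and isotypes differed. Of 231 tested rows 59 were higher in sperm, the same share as the 25.5% over all rows, and 22 were lower. The median log2 fold change was 0.33 and fell to -0.12 without sperm 1, to -0.00 without T1 and to -0.03 with the mutant sperm libraries in the fit, so no direction is given for the class. Fragments of Glu-CTC tRNA summed to 21780, 13372 and 10874 against 3412, 3362 and 4045 CPM, 4.25-fold higher in sperm, and 13 of 13 copies were higher. Those of Lys-CTT tRNA summed to 15866, 11799 and 10373 against 2355, 2152 and 2558 CPM (5.38-fold, 13 of 13 copies). Val-CAC tRNA had the largest fold of all isotypes summed, at 2421, 644 and 833 against 65.7, 88.9 and 115 CPM (14.5-fold and 8.23-fold without sperm 1, 7 of 7 copies). Glu-TTC tRNA summed to 4598, 1874 and 1700.5 against 654, 845 and 1019 CPM (5 of 6 copies higher) and Asp-GTC tRNA to 3312, 1995 and 2022 against 761, 1011 and 1022 CPM (12 of 14 higher).

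Other isotypes did not move this way. Gly-GCC tRNA summed to 5230.0, 2316 and 2394 against 1108, 1904 and 3218 CPM and Ala-AGC tRNA to 4311, 1615 and 1994 against 2438, 2412 and 2771 CPM, with 0 of 14 and 0 of 12 copies called. Tyr-GTA tRNA fell, with all 10 copies lower and a sum of 111, 35.03 and 66.0 against 202, 269.8 and 468 CPM. As a share of tRNA counts, which does not depend on scaling between libraries, Glu-CTC took 30.2, 33.6 and 28.2 against 20.8, 18.1 and 16.5% and Lys-CTT 22.0, 29.6 and 26.9 against 14.4, 11.6 and 10.4%. Tyr-GTA took 0.153, 0.0879 and 0.172 against 1.23, 1.45 and 1.91% of tRNA counts, and for all 3 isotypes the groups did not overlap (exact permutation p = 0.1). The row tRNA:Glu-CTC-2-2 measured 5596, 3270.3 and 2697 against 229, 246 and 399 CPM (log2 fold change 3.73 ± 0.57, edgeR adjusted p = 1.8e-04), tRNA:Val-CAC-1-1 1622, 395 and 538 against 27.6, 33.3 and 58.3 CPM (log2 fold change 4.42 ± 0.71, edgeR adjusted p = 2.7e-04) and tRNA:Tyr-GTA-3-1 84.7, 21.02 and 47.0 against 114, 216 and 359.6 CPM (log2 fold change -2.17 ± 0.64, edgeR adjusted p = 0.0126). The last call was lost without sperm 2 or sperm 3 (-1.67 and -1.94). Copies of an isotype can share sequence, so they are not independent rows.

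**Figure D4:**
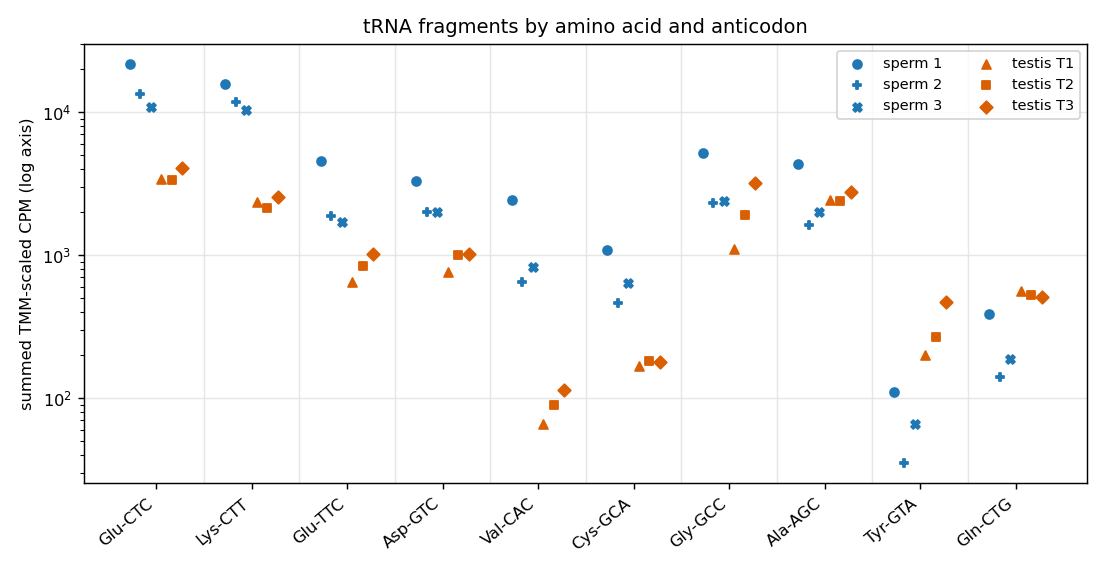
Summed TMM-scaled CPM (log axis) of tRNA fragments for 10 isotypes, named by amino acid and anticodon, in each sperm (blue) and testis (orange) library; each point is 1 library. Glu-CTC, Lys-CTT, Glu-TTC, Asp-GTC, Val-CAC and Cys-GCA lie higher in all 3 sperm libraries, Gly-GCC and Ala-AGC overlap, and Tyr-GTA and Gln-CTG lie lower.

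Fragments of small nucleolar RNAs (snoRNAs), which guide the modification of other RNAs, took 0.593, 0.604 and 0.575 against 2.14, 1.10 and 1.32% of counts. Of 222 tested rows 117 were lower in sperm (52.7%) and 10 were higher (4.50%), beside 33.8% and 25.5% over all rows. The median log2 fold change was -1.28. The most abundant row, snoRNA:U3:54Ab of the U3 snoRNA that processes rRNA, measured 701, 363 and 377 against 2083, 817 and 1958 CPM (log2 fold change -1.75 ± 0.56, edgeR adjusted p = 0.0193). This call was lost without sperm 2 or sperm 3 (-1.44 and -1.42). The small Cajal body RNA scaRNA:MeU2-C41, which guides methylation of the U2 snRNA, measured 2.99, 3.16 and 4.95 against 113, 56.7 and 73.8 CPM (log2 fold change -4.43 ± 0.54, edgeR adjusted p = 5.5e-05). In the opposite direction snoRNA:Me28S-A771, a guide of rRNA methylation, measured 16.2, 44.8 and 39.4 against 8.46, 4.63 and 8.60 CPM (log2 fold change 2.20 ± 0.50, edgeR adjusted p = 0.00283).

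Of 30 tested small nuclear RNA (snRNA) rows 2 were higher (6.67%) and 4 were lower (13.3%), beside 25.5% and 33.8% over all rows. snRNA:7SK, which holds an elongation kinase inactive, measured 435, 462 and 709 against 122, 90.5 and 214 CPM (log2 fold change 1.91 ± 0.53, edgeR adjusted p = 0.00923) and lost its call without T1 or T2 (1.56 and 1.57). snRNA:U4:39B of the spliceosome measured 98.3, 177 and 211 against 29.6, 23.2 and 29.4 CPM (log2 fold change 2.56 ± 0.50, edgeR adjusted p = 0.00107). Among noncoding RNAs lncRNA:CR43684 measured 273, 777 and 1187 against 0, 1.09 and 3.35 CPM (log2 fold change 8.89 ± 1.13, edgeR adjusted p = 6.4e-05), with sperm libraries far above testis but unequal among themselves. lncRNA:CR43264 had the opposite order, at 0.528, 0.904 and 0.9 against 161, 58.1 and 80.3 CPM (log2 fold change -6.95 ± 0.68, edgeR adjusted p = 3.5e-05).

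Among fragments of messenger RNAs, 1141 of 4470 coding exon rows were higher in sperm (25.5%) and 1394 lower (31.2%). Both lie near the 25.5% and 33.8% over all rows. Of 1674 3' UTR rows 571 were higher (34.1%) and 360 lower (21.5%). Of 649 5' UTR rows 233 were higher (35.9%) and 202 lower (31.1%). The median of coding exon rows was 0.10 and that of 3' UTR rows 0.63, and both fell below 0 under the DESeq2 test (-0.28 and -0.04). The coding exon median was below 0 under 7 of the 16 alternatives, so no direction is given for it. Marker genes are given as lists, which were chosen with earlier results of these data known. Their members could pass the filter through 1 group alone, so their called counts are descriptions. Genes of spermatids and sperm had 43 tested members, of which 42 were lower in at least 1 of their rows, and their fragments summed to 233, 160.3 and 129 against 2934, 3563 and 3192 CPM, 18.6-fold lower in sperm. Mst77F, a sperm chromatin protein, measured 0.528, 0.226 and 0.562 against 23.7, 22.1 and 29.4 CPM in its coding exons (log2 fold change -5.69 ± 0.50, edgeR adjusted p = 3.5e-05), and the protamine ProtA 0.352, 0 and 0 against 7.62, 6.54 and 6.92 CPM (log2 fold change -5.75 ± 0.72, edgeR adjusted p = 6.0e-05). The mitochondria-associated sperm protein gene dj (don juan) measured 0.528, 0 and 0.337 against 18.9, 31.1 and 25.8 CPM (log2 fold change -6.24 ± 0.63, edgeR adjusted p = 3.5e-05). Mst57Da, a member of that list made in the accessory gland, was higher instead, at 58.6, 21.2 and 6.30 against 0, 0 and 0.21 CPM (log2 fold change 8.07 ± 1.15, edgeR adjusted p = 1.1e-04). Within the list 2 members had a row called higher, and 1 of these also had a row called lower.

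Genes of primary spermatocytes were lower in 12 of 12 tested members, at a sum of 65.7, 74.4 and 76.0 against 569.9, 517 and 481 CPM, and 7 of the 22 in the table were at 0 in all sperm libraries. The Y-linked fertility genes, which encode among others the axonemal dyneins of the sperm tail, were lower in 5 of 5, at 3.17, 3.16 and 2.47 against 69.1, 54.5 and 44.0 CPM. kl-3, a dynein heavy chain gene, measured 0.352, 0.678 and 0.225 against 24.8, 17.4 and 14.9 CPM (log2 fold change -5.55 ± 0.54, edgeR adjusted p = 3.5e-05). Of the germline stem cell and spermatogonial genes 7 were tested, 5 were lower and 1 was higher. Their sum was 99.2, 109 and 108 against 275, 232 and 172 CPM, only 2.15-fold lower in sperm. vas (vasa), an RNA helicase gene of the germline, measured 0.705, 0.452 and 0.113 against 104, 80.1 and 27.3 CPM (log2 fold change -7.41 ± 0.82, edgeR adjusted p = 4.2e-05). Cyst and hub cell genes had 4 higher and 2 lower members among 10, and their sums overlapped, at 148, 177 and 144 against 201, 156 and 127 CPM. Among the largest falls over all rows with a mean of at least 50 counts, the 5' UTR of Dpy-30L2 was at 0 in all sperm libraries and at 50.5, 48.2 and 34.0 CPM in testis, at least 86.0-fold lower. The 3' UTR of the spermatid gene Mst84Dd measured 0, 0.226 and 0.113 against 99.0, 122 and 126 CPM (log2 fold change -9.80 ± 0.77, edgeR adjusted p = 3.5e-05).

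Fragments of genes of other male tissues were higher in sperm. Seminal vesicle and accessory gland genes, which encode seminal fluid proteins, had 17 of 17 tested members higher and summed to 569.8, 414 and 171 against 12.4, 13.9 and 17.61 CPM, 26.3-fold higher in sperm and 20.0-fold without sperm 1. Of its 45 counted members, 25 were at 0 in all testis libraries. Acp36DE, needed for sperm storage in the female, measured 109, 71.4 and 20.2 against 0, 0.273 and 0 CPM (log2 fold change 9.27 ± 1.06, edgeR adjusted p = 4.5e-05). SP (Sex Peptide), which changes female behaviour after mating, was at 8.45, 5.42 and 2.47 CPM in sperm and at 0 in testis, at least 7.13-fold higher. Muscle genes were higher in 18 of 20, at a sum of 1533, 1504 and 2047 against 213, 369 and 349 CPM (5.46-fold). Mhc, the muscle myosin heavy chain gene, measured 272, 191 and 300.1 against 15.5, 33.0 and 24.5 CPM (log2 fold change 3.38 ± 0.53, edgeR adjusted p = 2.2e-04), and the giant protein gene sls 244, 219 and 304 against 66.6, 105 and 65.8 CPM (log2 fold change 1.69 ± 0.48, edgeR adjusted p = 0.00972), whose call was lost without T1 (1.32). Fat body and hemocyte genes were higher in 7 of 8, at 375, 144 and 125 against 20.9, 29.4 and 41.1 CPM (7.05-fold and 4.42-fold without sperm 1). The lipoprotein gene apolpp measured 124, 52.4 and 77.6 against 7.34, 10.9 and 14.5 CPM (log2 fold change 2.95 ± 0.53, edgeR adjusted p = 5.9e-04).

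Sums of the marker lists moved with the comparison, except those of cyst and hub genes, which overlapped. The muscle miRNA mir-1 was lower in sperm (log2 fold change -1.72), a call that was lost without sperm 2, sperm 3, T1 or T2. Within miRNA counts alone mir-1 took 8.07, 3.95 and 9.10 against 9.64, 8.74 and 6.22%, with groups that overlapped (exact permutation p = 0.6). The part of RNA from seminal vesicle, accessory gland, muscle and fat body in any row higher in sperm was not tested.

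**Figure D5:**
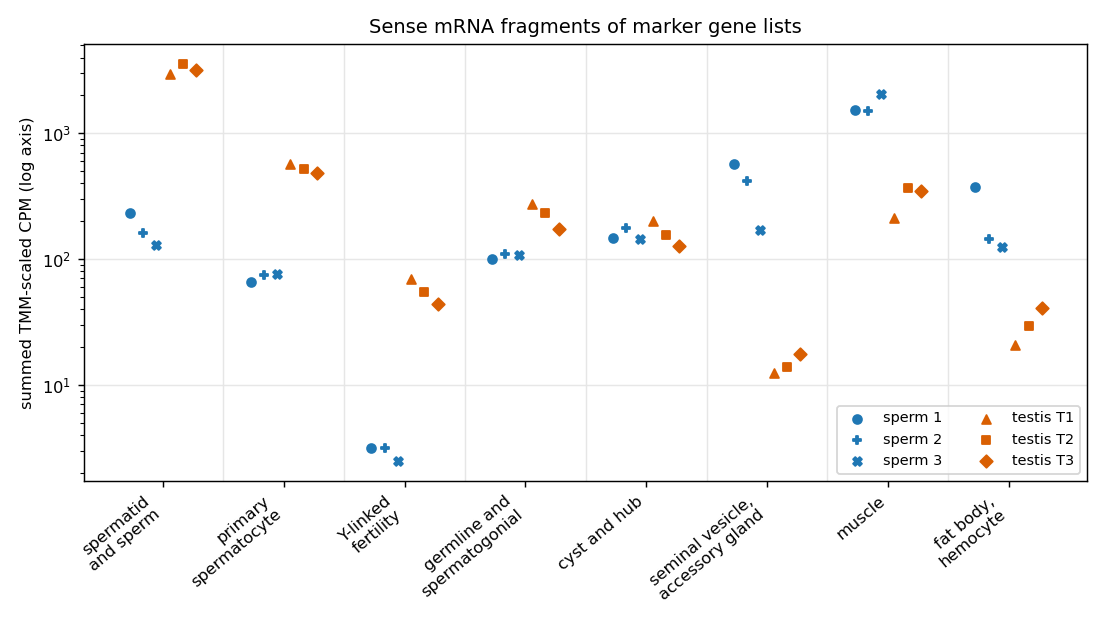
Summed TMM-scaled CPM (log axis) of sense messenger RNA fragments for 8 lists of marker genes in each sperm (blue) and testis (orange) library; each point is 1 library. Spermatid, spermatocyte, Y-linked and germline lists lie lower in all sperm libraries, the seminal vesicle and accessory gland, muscle and fat body lists higher, and cyst and hub genes overlap.

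One messenger RNA stood out by amount. CG18628 took 7.57, 17.4 and 13.02 against 0.0357, 0.381 and 2.62% of all sense messenger RNA counts. Its coding exons measured 3066, 6019.7 and 5435 against 12.98, 124 and 1039 CPM (log2 fold change 3.62 ± 1.17, edgeR adjusted p = 0.0195), its 3' UTR 1754, 5932 and 3971 against 5.64, 68.1 and 408 CPM (log2 fold change 4.595 ± 1.21, edgeR adjusted p = 0.00663) and its 5' UTR 647, 1509.7 and 1135 against 2.82, 46.3 and 386 CPM (log2 fold change 2.92 ± 1.19, edgeR adjusted p = 0.0527). Testis T3 lay far above T1 in all 3 rows, the groups did not overlap, and the exon call was lost without T2 (3.09). Msp300, which encodes a giant protein that anchors nuclei and muscle structures, measured 1440.2, 1106 and 1242 against 129, 141 and 245 CPM (log2 fold change 2.88 ± 0.53, edgeR adjusted p = 6.3e-04). The endocytic receptor gene mgl measured 593, 698 and 989 against 72.5, 169.5 and 456 CPM (log2 fold change 1.71 ± 0.67, edgeR adjusted p = 0.0445), and its call was lost without any 1 of 5 of the libraries. Both UTRs of CG5612 were far higher in sperm: the 3' UTR measured 13.7, 23.96 and 50.3 against 0.282, 0.273 and 0.21 CPM (log2 fold change 6.74 ± 0.73, edgeR adjusted p = 3.8e-05), and the 5' UTR was at 21.5, 20.1 and 46.6 CPM in sperm and at 0 in testis, at least 38.5-fold higher.

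Simple repeats showed no common order. Of 64 sense rows 16 were higher and 16 lower, 25% each, beside 25.5% and 33.8% over all rows. The AAGAG satellite, a repeat known to be transcribed in male meiosis, summed to 76.1, 495 and 413 against 766, 311 and 395 CPM over its sense rows, with sperm 1 lowest of all 6 libraries. Its most abundant row was not called (43.7, 281 and 238 against 441, 184 and 218 CPM, log2 fold change -0.58 ± 0.67, edgeR adjusted p = 0.479, 95% interval -2.06 to 0.90). The repeat (ACAATAG)n measured 3.70, 0.678 and 0 against 139, 123 and 195 CPM (log2 fold change -6.72 ± 1.09, edgeR adjusted p = 2.8e-04) and (CTTGT)n 5.81, 4.07 and 0.675 against 136, 90.5 and 65.6 CPM (log2 fold change -4.81 ± 0.76, edgeR adjusted p = 2.2e-04).

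To say which testis small RNAs were kept, the 4978 rows with at least 10 counts in each testis library were sorted by their test and by the 95% interval of their log2 fold change. Of these, 2634 (52.9%) were lower in sperm, 506 (10.2%) were higher, 155 (3.11%) were not called with an interval inside -1 to 1, 1499 were not called with a wider interval, and 184 were not tested. For the 1499 rows neither a kept nor a changed level was shown. Rows entered this set through their testis counts alone, which favours lower over higher calls. Over all tested rows 33.8% were lower and 25.5% higher, so the shares above describe the chosen rows only. The rows counted as kept within 2-fold ranged from 0 to 391 over the alternatives.

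By class, 145 of 151 antisense TE rows (96.0%), 68 of 74 sense cluster rows (91.9%), 61 of 86 miRNA rows (70.9%), 116 of 203 snoRNA rows (57.1%) and 1304 of 2729 coding exon rows (47.8%) were lower, against 21 of 203 tRNA rows (10.3%). Rows inside the 2-fold interval were 118 coding exon rows (4.32% of those present), 22 3' UTR rows (3.20%) and 7 snoRNA rows (3.45%), all close to the 3.11% over all rows, and 0 miRNA, 0 tRNA and 0 TE rows. This does not show that no miRNA or tRNA was kept. Of the same 86 miRNA and 203 tRNA rows, 21 and 121 were not called and had an interval too wide to tell. Abundant examples, named after their values were seen, were snoRNA:Me18S-G1358a (log2 fold change 0.09, interval -0.79 to 0.96), the unconventional myosin gene jar (-0.10, -0.99 to 0.79) and the ribosomal protein gene RpS27A (0.02, -0.86 to 0.90).

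A row was counted as lost where it was called lower, no sperm library had more than 3 counts and the testis level would have given at least 10 in each. This held for 931 rows, of which 165 were at 0 in every sperm library. The 931 rows are 18.7% of the 4978. By class they were 26 of 32 antisense pseudogene rows, 35 of 80 sense noncoding RNA rows, 535 of 2729 coding exon rows (19.6%, near the share over all rows), 8 of 151 antisense TE rows, 4 of 86 miRNA rows and 0 of 203 tRNA rows. Classes differ in their testis counts, on which the chance to reach 3 counts or fewer depends, and no difference between classes was tested. A count of 3 corresponds to 0.528, 0.678 and 0.337 TMM-scaled CPM in sperm 1, 2 and 3. A row counted as lost may still be present in sperm at or under that level.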

How the data were processed

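Small RNA counts of 3 WT sperm and 3 WT testis libraries were analysed. The authors deposited whole-number read counts per feature, in a sense and an antisense table. Per the submitters' processing notes, reads were processed with Trim Galore 0.5.0, Bowtie 1.2.3, SAMtools 1.8 and featureCounts of Subread 2.0.0, and the builds named are dm6 and BDGP6. How reads with several positions were counted is not given in the sources used here, so rows of multi-copy genes are uncertain. Per the labels' protocols, 2S rRNA was blocked and libraries were size-selected on a gel. Columns were matched to samples by name, and 3 columns that matched no sample were not used.

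Both tables were fitted together with edgeR 4.0.16 (R 4.3.3): low rows were removed by filterByExpr, libraries were scaled by TMM, and p-values of its quasi-likelihood test (robust setting) were adjusted after Benjamini and Hochberg over all 8291 rows, with a threshold of 0.05. Printed ± values after a log2 fold change are standard errors. CPM are TMM-scaled and sums include rows that did not pass the filter. Shares are percentages of all assigned counts and were compared by exact two-sided permutation tests (SciPy 1.17.1). At these depths the widest half-width of an exact (Clopper-Pearson) 95% interval of a class share was 0.0496 percentage points, which covers counting error only. The fit was tested on simulated counts. These had far fewer changed rows and a lower dispersion than the data, so that test cannot speak for the scaling or the calls here. No pair of libraries of a group agreed within sampling noise.

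The members, gene lists and tests were chosen with earlier results of these data known. Named rows were the most abundant of each class, the largest changes with a mean of at least 50 counts, and listed genes, with exceptions stated. Alternatives were other scalings, DESeq2 1.42.0, other filters, rRNA rows left out, separate testis coefficients, mutant sperm added, strands apart and each library left out.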

Additional observations from a re-analysis of the deposited data

How the results depend on the processing

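Many named rows were chosen for large changes in these same libraries, so their direction in other fits is no independent check. Over 16 alternatives, 1371 of 1375 values of 87 named rows kept their direction. The exceptions were mir-276a, at -0.052 with mutant sperm added and -1.60 to 0.88 over the fits that left out 1 library, and let-7, at -0.010 to 0.50 over those fits. A call was lost in 66 of these values and gained in 19. Without a filter 8555 rows were called, 5585 of them lower, with 2346 coding exon and 1027 3' UTR rows lower, 9 miRNAs and 52 seminal vesicle and accessory gland rows higher and 17 rows kept within 2-fold. A filter of 50 counts in 3 libraries, which tests fewer rows, left 1605 calls (773 higher, 832 lower). These held 80 sense TE, 42 sense cluster, 7 tRNA, 269 coding exon, 68 3' UTR, 35 spermatid and 22 Su(Ste) rows lower, 503 coding exon, 140 3' UTR, 16 muscle and 5 accessory gland rows higher, and 832 lower and 74 kept testis rows. The DESeq2 test called 4907 rows lower, 2154 of coding exons and 846 of 3' UTRs, 38 accessory gland rows higher and 92 rows kept. With mutant sperm added, 39 tRNA and 589 3' UTR rows were lower, 36 accessory gland rows higher and 391 kept. The miRNAs called higher numbered 2 with DESeq2 size factors and 2 without rRNA rows and cluster92, the last an alternative chosen after seeing the data. Total counts alone left 23 rows kept. At a presence of 50 counts 828 testis rows were lower, 102 higher and 13 kept. Outside rRNA rows the sperm minus testis share was -11.4 points for antisense TEs, -3.51 for miRNAs, 20.4 for tRNAs and 14.7 for coding exons. Leaving out 1 library gave 1 to 8 miRNAs higher, 33 to 75 tRNA rows higher and 12 to 34 lower, 372 to 572 3' UTR rows lower, 216 to 617 testis rows higher and 0 to 104 kept within 2-fold. The cause of these shifts was not tested. No paired analysis was possible because the testis columns carry no replicate number.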
